A study of Homo sapiens with 30 samples.

Results

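ERG peaks in open chromatin without ERK2 were 1329 regions of the ERG ChIP-seq list of RWPE1-ERG/mAKT cells. They were chosen by 3 measured positions. Each member was an ERG peak on an autosome or the X chromosome that overlapped an ATAC-seq peak of the same cells by at least 1 bp and had no ERK2 peak of RWPE1-ERG cells within 1 kb. The 1329 members made up 14.6% of the 9104 ERG peaks on these chromosomes, of 9113 in the whole list. Of the others, 7295 lay outside the ATAC-seq peaks and away from ERK2, and 480 lay within 1 kb of an ERK2 peak, 360 of them in open chromatin.

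RWPE1 is an immortalized line of normal prostate epithelial cells. The lines were made by retroviral transduction and selection. RWPE1-vector cells carried the empty pQCXIH and pBabe-puro vectors, RWPE1-ERG cells carried ERG isoform 1 with an empty vector, RWPE1-mAKT cells carried myristoylated AKT with an empty vector, and RWPE1-ERG/mAKT cells carried both ERG and myristoylated AKT. For ERK2 ChIP-seq and H3K27me3 ChIP-seq the vector, ERG and ERG S96E cells carried the pQCXIH construct without a pBabe vector, and ERG S96E is a form of ERG that mimics phosphorylation at S96. VCaP is a prostate cancer line that expresses ERG from a TMPRSS2/ERG fusion, and the list used came from cells given DMSO. Each peak list came from 1 library, so no difference between lists had a replicate check. ERK2 was mapped in cells with ERG but not in cells with both ERG and mAKT, so ERK2 at these sites in the line whose ERG peaks are described was not analysed here.

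ERG is a transcription factor of the ETS family, whose members bind DNA at a GGAA core. In a large share of prostate cancers a gene fusion switches ERG on in epithelial cells that normally lack it. AP-1, a dimer of JUN and FOS proteins, binds next to ETS proteins at many enhancers of migrating and RAS-driven cells. ERK2 is the kinase at the end of the RAS/ERK pathway and can be recovered on chromatin together with the factors it phosphorylates. ATAC-seq marks DNA that a transposase can enter, which includes active promoters and enhancers.

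The sequences below are examples chosen by the letters they hold, or lack, and do not stand for all members. Each is a run of the plus strand of GRCh37, the hg19 build of the lists, from 50 bp before to 50 bp after the ERG summit, which is the base with the highest pileup of reads. Shown first are 4 of the 5 members with the highest fold enrichment over input that carried AGGAAGTG or CGGAAGTG on either strand within 50 bp of the summit, among members with a q-value of 0.01 or less that touched no annotated exon. Capitals mark these ETS sequences, which read CACTTCCT or CACTTCCG on the other strand, and the AP-1 sequences TGACTCA or TGAGTCA.
ELL intron site, chr19:18589810-18589910: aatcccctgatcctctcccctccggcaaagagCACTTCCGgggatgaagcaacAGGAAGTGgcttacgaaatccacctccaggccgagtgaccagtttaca
Site between genes nearest to DLG5-AS1, chr10:79709129-79709229: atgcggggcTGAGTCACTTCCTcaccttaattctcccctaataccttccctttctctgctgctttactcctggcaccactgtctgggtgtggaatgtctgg
MICALL2 intron site, chr7:1495367-1495467: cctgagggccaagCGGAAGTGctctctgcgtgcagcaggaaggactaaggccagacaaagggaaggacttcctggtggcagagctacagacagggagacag
Site nearest to FAM95C, chr9:38516462-38516562: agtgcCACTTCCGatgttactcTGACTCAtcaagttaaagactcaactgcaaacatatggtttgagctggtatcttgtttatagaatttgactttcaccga
The ELL site had an ETS sequence on each strand, centred 14.5 and 6.5 bp from its summit. ELL encodes an elongation factor of RNA polymerase II. At the DLG5-AS1 site an AP-1 sequence and an ETS sequence shared 2 bases.

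The next sequences are the 3 strongest of the same kind with TGACTCA or TGAGTCA that are not printed above, which leaves out the DLG5-AS1 site, and the 2 strongest with no GGAA on either strand within 50 bp of the summit.
SEMA3A intron site, chr7:83690179-83690279: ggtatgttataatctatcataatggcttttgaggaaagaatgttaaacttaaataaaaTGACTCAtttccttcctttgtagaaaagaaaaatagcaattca
UROC1 intron site, chr3:126206058-126206158: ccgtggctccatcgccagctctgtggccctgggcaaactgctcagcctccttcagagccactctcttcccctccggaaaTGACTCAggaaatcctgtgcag
DOCK2 intron site, chr5:169123289-169123389: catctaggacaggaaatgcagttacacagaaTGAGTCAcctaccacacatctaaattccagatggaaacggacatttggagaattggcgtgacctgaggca
FKBP9P1 intron site, chr7:55767044-55767144: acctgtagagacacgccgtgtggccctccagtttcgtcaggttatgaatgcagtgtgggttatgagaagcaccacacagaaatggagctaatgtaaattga
TRPC4AP intron site, chr20:33640591-33640691: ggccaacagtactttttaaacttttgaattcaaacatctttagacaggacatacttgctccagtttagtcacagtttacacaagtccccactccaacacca
The last pair had none of these cores in this window and a fold enrichment of 8.22 and 7.93. FKBP9P1 is a pseudogene, and reads from near-identical copies could be split or misplaced there.

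The last 3 sequences belong to members next to genes described below and were chosen after their values were seen. Here GGAAGT is in capitals as well.
TGM2 site, chr20:36796573-36796673: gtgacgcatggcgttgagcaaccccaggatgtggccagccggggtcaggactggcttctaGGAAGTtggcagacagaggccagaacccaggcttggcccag
KRT13 site, chr17:39656517-39656617: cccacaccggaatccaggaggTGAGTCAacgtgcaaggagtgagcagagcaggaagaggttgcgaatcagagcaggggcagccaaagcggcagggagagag
ABCC3 intron site, chr17:48716717-48716817: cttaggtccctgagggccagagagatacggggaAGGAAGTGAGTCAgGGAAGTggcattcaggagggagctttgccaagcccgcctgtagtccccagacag
TGM2 encodes transglutaminase 2, an enzyme that crosslinks proteins. Its site lay between genes, 1643 bp from the TGM2 start. The ABCC3 site held AGGAAGTGAGTCA, in which the ETS and AP-1 sequences shared 2 bases, followed by a further GGAAGT.

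The members were shallow peaks. Their pileup ranged from 3 to 20 reads with a median of 5, and 756 members, or 56.9%, rested on a pileup of 3 to 5 reads. Their fold enrichment over input ranged from 2.62 to 14.0 with a median of 4.14, against a median of 3.53 for the ERG peaks in closed chromatin. A q-value of 0.01 or less was reached by 184 members, or 13.8% (95% Wilson interval 12.1 to 15.8%), by 18.1% of the ERG peaks with ERK2 and by 2.43% of the closed ones. The members were spread over 23 chromosomes, and 128 had another member within 10 kb. They lay in 1284 ATAC-seq peaks. The median ATAC-seq fold enrichment over the members was 6.19, and the peaks around them had a median width of 495 bp.

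At the limits of the rule the values were close together. The member nearest to an ERK2 peak was 1012 bp from it, and the open peak just excluded was 987 bp from one, and 47 members had an ERK2 peak between 1 and 2 kb away. The smallest overlap with an ATAC-seq peak was 1 bp, and 73 members overlapped by under 50 bp, while 79 ERG peaks without ERK2 lay within 100 bp of an ATAC-seq peak without touching it.

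The member with the highest fold enrichment lay on ERG itself and stands apart. It spanned chr21:39755314-39755848, had a pileup of 20 and a fold enrichment of 14.0, and its summit was in coding sequence of the ERG exon at chr21:39751949-39755845. The ATAC-seq peak over this exon was present in RWPE1-ERG cells (fold enrichment 13.1) and RWPE1-ERG/mAKT cells (7.21) and absent from the list of RWPE1-mAKT cells. Another 3 ERG peaks overlapped other ERG exons and were not members. The cells with ERG carry an ERG cDNA, and reads from the introduced cDNA and from the exon of the cells' own gene cannot be told apart in these lists. ERG had 0.264 FPKM in RWPE1-vector cells, 358 in RWPE1-ERG cells, 0.435 in RWPE1-mAKT cells and 328 in RWPE1-ERG/mAKT cells. FPKM is a count of fragments scaled for transcript length and library depth, here the authors' value pooled over 3 libraries of a line.

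Among the other strongest members, MAMDC2, TPD52L2, FNDC3B and ELL held members in their introns. The MAMDC2 member at chr9:72661406-72661758 had a fold enrichment of 9.18 and lay 2749 bp from the MAMDC2 start, and MAMDC2 had 0.416 FPKM or less in the 4 lines. The TPD52L2 member at chr20:62504917-62505212 had a fold enrichment of 9.06, and TPD52L2 had 199 FPKM in RWPE1-vector, 193 in RWPE1-ERG, 175 in RWPE1-mAKT and 138 in RWPE1-ERG/mAKT cells. Strong ERG peaks thus lay in genes with much RNA and in genes with next to none. The member at chr6:130923508-130923906, with a fold enrichment of 8.47, had TMEM200A as its nearest gene at 159489 bp. TMEM200A had 0.0674 FPKM in RWPE1-vector, 3.68 in RWPE1-ERG, 0.0189 in RWPE1-mAKT and 0.113 in RWPE1-ERG/mAKT cells, so it was above 1 FPKM in RWPE1-ERG cells alone of the 4. FNDC3B, which held 2 members, had 12.5, 12.2, 10.8 and 12.5 FPKM in the order vector, ERG, mAKT and ERG/mAKT. The other genes named by the 10 strongest members were FKBP9P1, LOC101927964 and C17orf47, each under 1 FPKM in every line, and MIR499A, a small RNA gene whose locus is shared by 4 genes. The locus of C17orf47 is also shared by 4 genes, and the summit of its member lay in a noncoding exon within SEPTIN4 and SEPTIN4-AS1.

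Most members were open in all 3 lines whose ATAC-seq lists were used. Of the 1329, 1103 or 83% (95% Wilson interval 80.9 to 84.9%) also overlapped a peak in both RWPE1-ERG and RWPE1-mAKT cells. The same was true of 83.4% of the 40123 open sites of RWPE1-ERG/mAKT cells that held no ERG peak. No ATAC-seq list of RWPE1-vector cells was used, so sites open before either gene was introduced were not analysed here. The lists differed in size, with 42081 peaks in RWPE1-ERG/mAKT, 63354 in RWPE1-ERG and 57999 in RWPE1-mAKT cells, and when the top 33000 of each were taken, 67.8% of the members were open in all 3 lines.

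Members open in only 1 of the other lines were more often open with ERG. A total of 139 members, or 10.5% (8.93 to 12.2%), were open in RWPE1-ERG but not RWPE1-mAKT cells, and 33, or 2.48% (1.77 to 3.47%), were open in RWPE1-mAKT but not RWPE1-ERG cells. ATAC-seq peaks without an ERG peak had the opposite order, with 4.74% open with ERG only and 6.00% open with mAKT only. The difference between the members and these peaks was 5.72 percentage points (95% interval 4.17 to 7.49) for sites shared with RWPE1-ERG and -3.51 points (-4.26 to -2.50) for sites shared with RWPE1-mAKT. With the top 33000 peaks of each list the shares of members became 12.2 and 6.32%, and those of the other peaks 6.10 and 11.6%. The remaining 54 members were in the ATAC-seq list of RWPE1-ERG/mAKT cells alone.

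**Figure D1:**
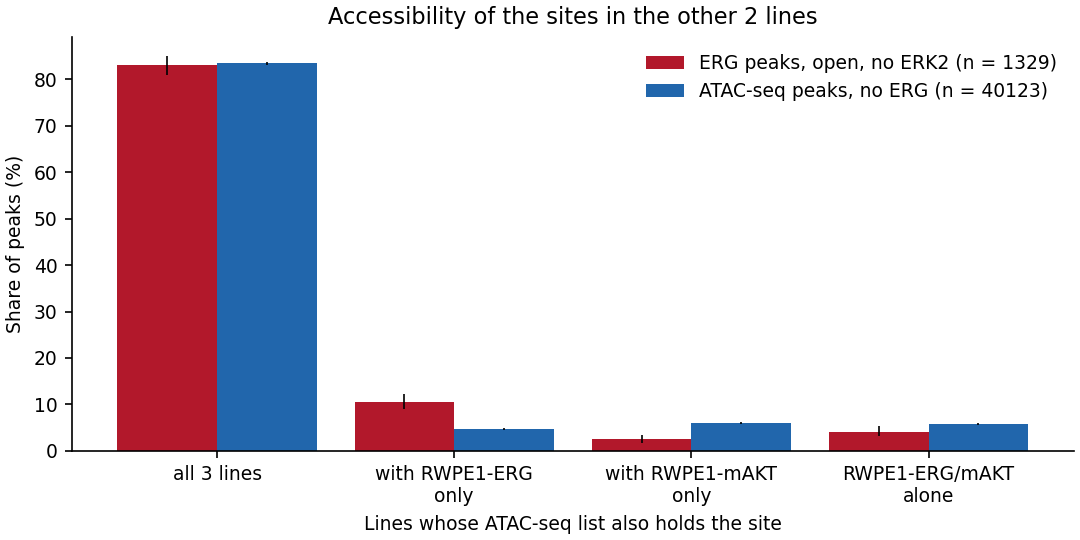
Share of sites (%, vertical axis) by the lines whose ATAC-seq list also held them, for the 1329 ERG peaks in open chromatin without ERK2 (red) and 40123 ATAC-seq peaks without an ERG peak (blue), with bars for 95% Wilson intervals. About as many of both groups were open in all 3 lines (83 and 83.4%), while 10.5% of the ERG peaks and 4.74% of the other sites were shared with RWPE1-ERG cells only.

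The member groups by accessibility also differed in place and strength. Members open in all 3 lines had a median ATAC-seq fold enrichment of 6.54, and those in RWPE1-ERG/mAKT cells alone one of 4.30. A gene start lay within 1 kb of 14.8% of the members open in all 3 lines, of 2.88% of those shared with RWPE1-ERG only and of 1.85% of those in RWPE1-ERG/mAKT cells alone. The median ERG fold enrichment was 4.16, 4.22 and 4.24 in these groups. The 33 members shared with RWPE1-mAKT only had a median ERG fold enrichment of 3.53, and 6.06% of them were within 1 kb of a gene start.

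The members lay mostly away from gene starts. Of the 1329, 170 or 12.8% (11.1 to 14.7%) had a summit within 1 kb of a gene start of GENCODE release 44, 1001 lay from 1 to 50 kb away and 158 lay farther. ATAC-seq peaks without an ERG peak had 30.3% within 1 kb of a gene start, ERG peaks with ERK2 had 17.9% and closed ERG peaks had 4.15%. The members were thus 17.5 percentage points below the other open sites (interval 15.5 to 19.2 in size) and 8.64 points above the closed ERG peaks (6.88 to 10.6). The summit was in an intron for 731 members, between genes for 443, in a noncoding exon for 87, in a UTR for 53 and in a coding exon for 15.

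ETS sequences were found at more members than at comparable open or flanking DNA. AGGAAGTG or CGGAAGTG was present within 100 bp of the summit, on either strand, in 140 members, or 10.5% (9.0 to 12.3%), against 53 of 2658 equally wide windows centred 1 kb from the summits, or 1.99% (1.53 to 2.60%). The share was 4.00% in ATAC-seq peaks without an ERG peak, read around the centre of the peak, and 2.1% in closed ERG peaks. GGAAGT, which these sequences contain, was present in 27.9% of the members, 10.4% of the flanking windows, 14.7% of the other ATAC-seq peaks and 11.7% of the closed ERG peaks. Read around the centre of their ATAC-seq peak instead of the ERG summit, the members' regions held the longer ETS sequence in 8.80% (7.37 to 10.5%) and GGAAGT in 24.3%.

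The ETS shares of the members and of the ERG peaks with ERK2 were close, though only 360 of the latter were in open chromatin. The longer ETS sequence was present in 10.5% of the members and 10.0% of the 480 ERG peaks with ERK2, a difference of 0.534 percentage points with a 95% interval from -2.85 to 3.49. For GGAAGT the difference was 0.832 points (-3.93 to 5.35). These intervals still allow differences of a few points in either direction.

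The flanking letters of the core varied among members. CAGGAAGT was present in 130 members, or 9.78%, and in 2.35% of the other ATAC-seq peaks. CCGGAAGT, the form common at promoters, was present in 30 members, or 2.26%, and in 1.59% of the other ATAC-seq peaks, and 15 of these 30 members were among the 170 near a gene start. GGAAGGAA, a pair of cores, was present in 7.60% of the members and in 2.24% of the other ATAC-seq peaks. None of the 1329 members was a tandem repeat (0%, upper bound 0.288%), whereas 78 of the 7295 closed ERG peaks were.

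AP-1 sequences were the most frequent at the members of the letters of other factors searched. TGACTCA or TGAGTCA was present in 336 members, or 25.3% (23 to 27.7%), in 99 of the 2658 flanking windows, or 3.72%, and in 4.74% of the closed ERG peaks. The 40123 other ATAC-seq peaks held it in 17.4%, and those over 1 kb from a gene start in 23.1%, beside 26.6% (24.1 to 29.2%) of the members over 1 kb from a gene start. The gap to the other open sites was thus smaller among sites away from gene starts than over all sites. Near gene starts the values were 16.5% of the 170 members and 4.29% of the 12146 other ATAC-seq peaks. ERG peaks with ERK2 held it in 18.3%, which was 6.95 percentage points below the members (interval 2.60 to 11.0). All members were open, but only 360 of these 480 peaks were, and the share among those 360 was not computed. The gap can therefore not be assigned to ERK2 rather than to accessibility.

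The ETS sequence kept a gap in both settings. Away from gene starts it was present in 9.75% of the members and 3.26% of the other ATAC-seq peaks, and near gene starts in 15.9 and 5.69%. Among the 184 members with a q-value of 0.01 or less the ETS share was 18.5% (13.5 to 24.7%), against 9.26% (7.71 to 11.1%) of the remaining members. AP-1 was present in 27.7 and 24.9% of these groups, whose intervals overlap.

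**Figure D2:**
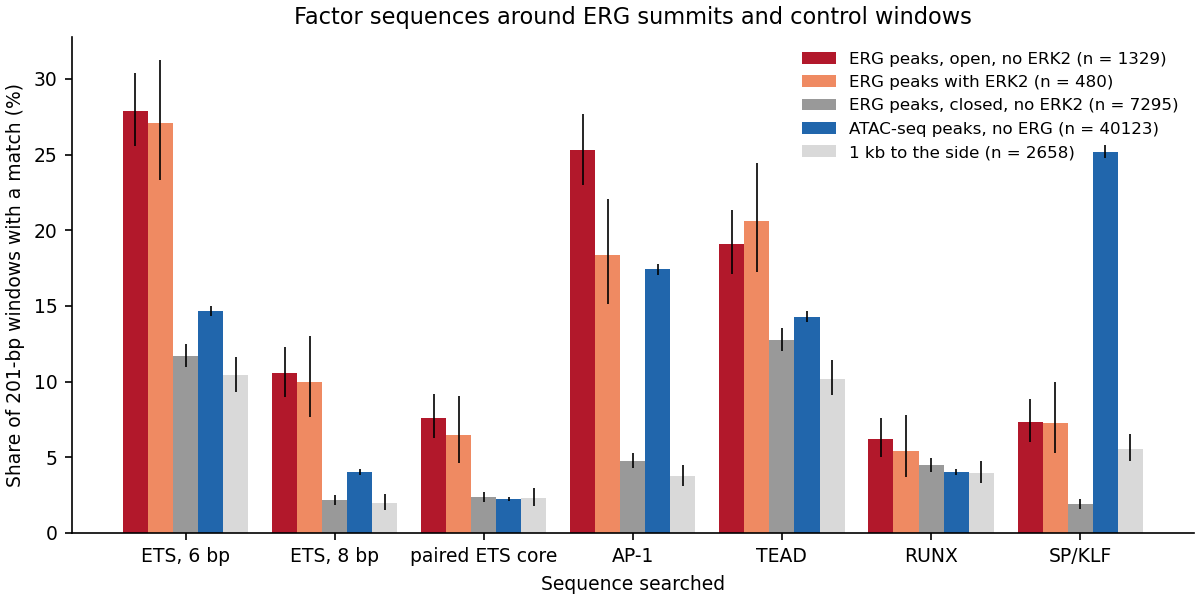
Share of windows reaching 100 bp to each side (%, vertical axis) that held each sequence on either strand, for the members (red), ERG peaks with ERK2 (orange), closed ERG peaks without ERK2 (dark grey), ATAC-seq peaks without an ERG peak (blue) and windows 1 kb from the members (light grey), with 95% Wilson intervals. The shorter ETS sequence GGAAGT is the one at 27.9% of members and the longer is the one at 10.5%, and SP/KLF letters are the ones most frequent at ATAC-seq peaks without ERG, at 25.2%.

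GGGCGG, the GC box bound by SP and KLF factors, was present in 7.30% of the members and 25.2% of the other ATAC-seq peaks. Away from gene starts these shares were 5.69 and 12.2%. GGAATG, the core of TEAD sites, through which YAP acts, was present in 19.1% of the members, 10.2% of the flanking windows and 14.3% of the other ATAC-seq peaks. It was present in 19.9% of the members and 17.3% of the other ATAC-seq peaks away from gene starts. TGTGGTT, a RUNX sequence, was present in 6.17% of the members, 3.95% of the flanking windows and 4.00% of the other ATAC-seq peaks. Away from gene starts 6.47% of the members and 5.06% of the other ATAC-seq peaks held it, a smaller gap. TGTTTAC, a sequence of forkhead factors, was present in 3.84% of the members and 3.72% of the other ATAC-seq peaks. CCAATCA of NFY, TGACGTCA of CREB proteins, AACCGGTT of GRHL proteins, and the longer p63 and CTCF sequences were each present in under 2% of the members.

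ETS and AP-1 sequences lay together at few members. Both the longer ETS sequence and an AP-1 sequence were present in 33 members, or 2.48%, and neither was present in 886, or 66.7%. Of these 33, 17 had no more than 10 bp between them and 6 shared bases, as at the ABCC3 site printed above. Both were present in 274 of the 40123 other ATAC-seq peaks, a smaller share than among the 1329 members. Of these 274, 62 had no more than 10 bp between them and 31 shared bases. GGAAGTGA, which joins an ETS sequence to the start of an AP-1 sequence, was present in 6.02% of the members, 4.38% of the ERG peaks with ERK2 and 2.40% of the other ATAC-seq peaks.

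The sequences were centred on the summits. In 20-bp steps, GGAAGT occurred 3.58 times per 100 members within 40 bp of the summit and 1.34 times from 300 bp outward, a ratio of 2.68. At ATAC-seq peaks without ERG the ratio around the centre was 1.46. For AP-1 the ratio was 5.84 at the members and 5.67 at the other ATAC-seq peaks. These lists give no ATAC-seq summit, so a broad peak's centre stands in for it.

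**Figure D3:**
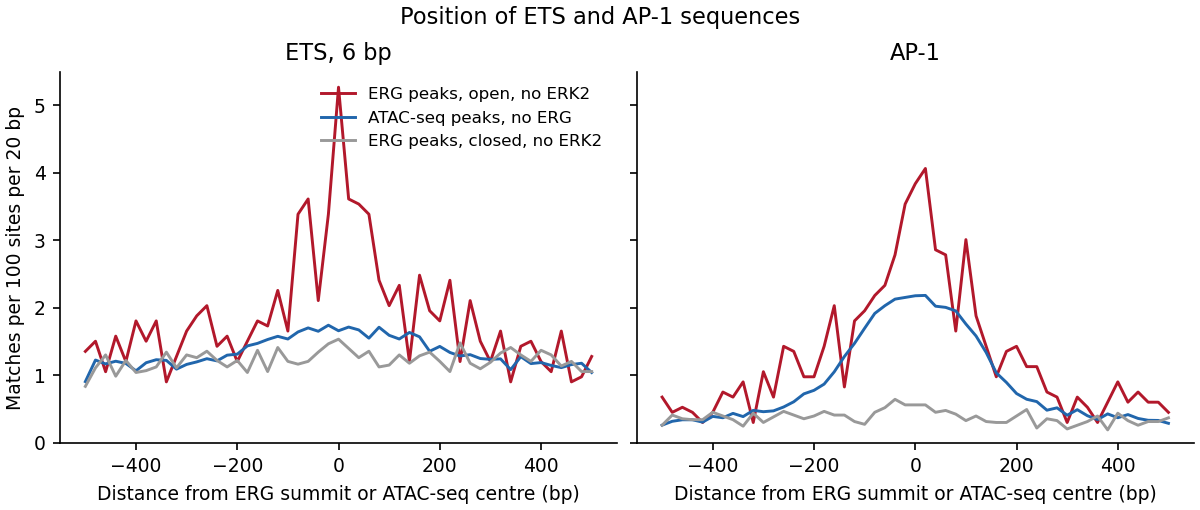
Matches of GGAAGT (left) and of AP-1 sequences (right) per 100 sites in 20-bp steps (vertical axis) against distance in bp from the ERG summit or the ATAC-seq peak centre (horizontal axis), for the members (red), ATAC-seq peaks without an ERG peak (blue) and closed ERG peaks without ERK2 (grey). Both sequences peaked at the members' summits, and AP-1 also peaked at the centre of ATAC-seq peaks without ERG.

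Few members were ERG peaks in VCaP cells. A VCaP ERG peak overlapped 58 members, or 4.36% (3.39 to 5.60%), against 7.08% of the ERG peaks with ERK2, 0.302% of the closed ERG peaks and 2.50% of the ATAC-seq peaks without an ERG peak. These 58 members lay within 1 kb of a gene start in 46.6% of cases, against 11.3% of the other members. They held the longer ETS sequence in 22.4% and AP-1 in 10.3%, against 9.99 and 26.0% of the members without a VCaP peak. Members near FNDC3B, FLRT3, CLDN4 and SPRY1 were among those shared with VCaP cells. SPRY1 encodes a feedback inhibitor of RAS/ERK signaling, and its member at chr4:124317726-124317906 lay 144 bp from the SPRY1 start.

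Absence of ERK2 in RWPE1-ERG cells did not mean absence in RWPE1-vector cells. A vector ERK2 peak lay within 1 kb of 259 members, or 19.5% (17.4 to 21.7%), against 44.2% of the ERG peaks with ERK2, 4.96% of the closed ERG peaks and 12.9% of the other ATAC-seq peaks. The vector list holds 41276 peaks and the ERG list 5721, and with as many vector peaks as the ERG list holds the share of members was 5.72%. The 2 lists came from 1 library each, with 15020233 reads in RWPE1-ERG and 8393459 in RWPE1-vector cells, so a change in ERK2 and the difference between libraries cannot be told apart.

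H3K27me3, the repressive mark set by polycomb complex PRC2, was rare at the members. A region of the mark overlapped 44 members, or 3.31% (2.48 to 4.42%), in RWPE1-vector cells, 7 or 0.527% (0.255 to 1.08%) in RWPE1-ERG cells and 11 or 0.828% (0.463 to 1.48%) in RWPE1-ERG S96E cells. The closed ERG peaks had 14.3, 7.24 and 10.1%, and the ATAC-seq peaks without an ERG peak had 5.87, 1.86 and 5.68%. The ERG peaks with ERK2 had 2.92, 0.833 and 1.25%, and the 95% intervals of their differences from the members included 0 in all 3 lines. The vector list held 492265 regions, the ERG list 228233 and the S96E list 252784, and with equal numbers of regions the vector share was 1.35%. These 3 lines carried no mAKT.

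The nearest gene of each member was taken from the locus column of the expression table. The 1329 members had 1160 nearest genes, of which 1026 were nearest to 1 member and 5 to 4 or more. A summit lay inside the locus for 659 members, or 49.6%, and within 20 kb of it for 966. The table merges overlapping genes into shared loci, and for 398 members 2 or more genes tied, so that the gene named can be the wrong one of a shared locus. MICAL2, whose protein oxidizes actin and whose locus is shared by 2 genes, was nearest to the most members, 5. It had 31.3 FPKM in RWPE1-vector, 26.3 in RWPE1-ERG, 25.3 in RWPE1-mAKT and 18.1 in RWPE1-ERG/mAKT cells. The other genes with 4 members were LINC00936, C6orf223, MIR4316 and MIR6880, which had under 1 FPKM in every line, and the last 3 of these shared their locus with another gene.

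Basal and luminal epithelial markers were both expressed. All 12 basal markers listed, among them KRT5, KRT14 and TP63, had at least 1 FPKM in each line, and 6 of 12 luminal markers did. The summed level was 10461 FPKM for the basal and 1813 for the luminal list in RWPE1-vector cells and 4703 and 4576 in RWPE1-ERG cells. It was 10563 and 2070 in RWPE1-mAKT cells and 10152.5 and 2542 in RWPE1-ERG/mAKT cells, nearer to vector than to RWPE1-ERG cells. A sum follows its highest genes, and single basal genes differed. KRT5 had 3126, 1170, 3642 and 3519 FPKM in the order vector, ERG, mAKT and ERG/mAKT, and TP63 had 36.3, 21.3, 39.2 and 38.0. KRT14 had 2936, 700, 2527 and 1185, so in RWPE1-ERG/mAKT cells it was nearer to RWPE1-ERG than to vector cells. Of 15 endothelial markers 2 had at least 1 FPKM in each line, with PECAM1 at 0.0253 FPKM or less, and of 10 immune markers 1 or 2 did, with PTPRC at 0.00391 or less. AKT1 had 58.7 FPKM in RWPE1-vector, 64.2 in RWPE1-ERG, 156 in RWPE1-mAKT and 281 in RWPE1-ERG/mAKT cells.

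Of the 1160 nearest genes 714, or 61.6%, had at least 1 FPKM in any line, against 48.5% of the 25839 genes of the table on these chromosomes. Their median level in RWPE1-ERG/mAKT cells was 11.1 FPKM, against 10.2 for all 12531 genes at or above 1 FPKM. Ratios were taken as log2 of FPKM plus 1, which understates the change of low genes, and a gene was counted as past 2-fold at a log2 ratio of 1 or more in size. The 3 libraries of each line are pooled in the table, so these ratios have no replicate error and no test, and a count of genes is a description set beside all genes.

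In RWPE1-ERG over RWPE1-vector cells, 36 of the 714 nearest genes, or 5.04%, were at least 2-fold higher, beside 3.54% of all genes. Another 4, or 0.560%, were at least 2-fold lower, beside 0.966%, and with a pseudocount of 0.1 this order turned, to 2.101% beside 1.87%. The list includes ERG and genes of small RNAs, which libraries of long RNA measure poorly. Without small RNA genes the shares were 4.45% higher, beside 2.00% of all genes, and 0.287% lower, beside 0.530%. Without the ERG gene 35 of 713, or 4.91%, were higher. For the genes nearest to the 184 members with a q-value of 0.01 or less, 10 of 107, or 9.35%, were at least 2-fold higher and 0 were lower. The 10 include ERG itself and TMEM200A, whose member is 159489 bp away. A share of 0 among 107 genes is little below the 0.966% of all genes. When the nearest gene start was used in place of the nearest locus, 4.12% were higher, which is close to the share of all genes. Of the 275 genes with at least 1 FPKM nearest to ERG peaks with ERK2, 4.00% were higher and 0.727% lower.

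In RWPE1-mAKT over RWPE1-vector cells, the shares of the nearest genes were near those of all genes. Of the 714, 9 or 1.26% were at least 2-fold higher, beside 1.13% of all genes, and 5 or 0.700% were lower, beside 0.814%. Without small RNA genes 0.717% were higher, beside 0.364%, and 0.143% were lower, beside 0.290%.

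With mAKT added to ERG, differences lay on both sides. In RWPE1-ERG/mAKT over RWPE1-ERG cells, 23 nearest genes or 3.22% were at least 2-fold higher, beside 2.02% of all genes, and 24 or 3.36% were lower, beside 2.47%. When the nearest GENCODE gene span was used, 2.12% were higher, close to the share of all genes, and 3.49% were lower. Without small RNA genes 2.44% were higher, beside 1.38%, and 3.01% were lower, beside 1.83%. Of the 275 genes nearest to ERG peaks with ERK2, small RNA genes kept, 1.82% were higher and 5.82% lower. In RWPE1-ERG/mAKT over RWPE1-mAKT cells, 17 or 2.38% were higher, beside 2.03%, and 14 or 1.96% were lower, beside 0.854%. With the nearest GENCODE gene span both shares were 1.12%, below all genes for higher and nearer to all genes for lower. Without small RNA genes 1.43% were higher, beside 0.903%, and 1.43% were lower, beside 0.348%. For the genes nearest to ERG peaks with ERK2, small RNA genes kept, the shares were 0.364% higher and 1.82% lower. The median log2 ratio of the nearest genes was 0.02, 0.01, -0.10 and -0.08 in the 4 comparisons in the order given, against -0.01, 0.02, -0.04 and -0.07 for all genes. The comparisons share lines, so their counts do not support each other.

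**Figure D4:**
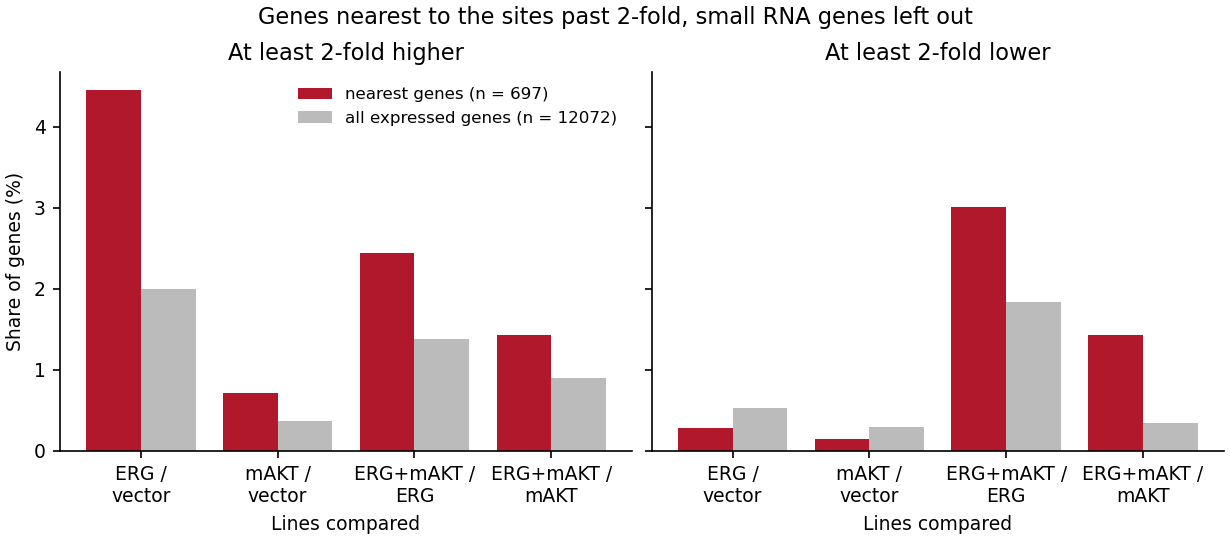
Share of genes (%, vertical axis) at least 2-fold higher (left) or lower (right) in each of 4 comparisons of lines (horizontal axis), for the 697 genes nearest to the members (red) and all 12072 genes with at least 1 FPKM (grey), small RNA genes left out. The bars come from values pooled over 3 libraries and have no error, and the widest gap is in ERG over vector, at 4.45 and 2.00%.

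Folds of single genes below are plain ratios of FPKM with no pseudocount. Genes near members that were higher with ERG included TGM2, NNMT and ADAM19. TGM2 had 8.73 FPKM in RWPE1-vector, 53.5 in RWPE1-ERG, 5.36 in RWPE1-mAKT and 4.18 in RWPE1-ERG/mAKT cells, so it was 6.13-fold higher with ERG and 12.8-fold lower when mAKT was added. Its level was high in RWPE1-ERG cells alone, and its member, printed above, had a fold enrichment of 5.66 in the ERG/mAKT line, where TGM2 was at its lowest. NNMT, which methylates nicotinamide, had 12.7, 67.1, 7.31 and 33.3 FPKM in the same order of lines, and was the higher in both lines with ERG. Its member at chr11:114165702-114165843 had a fold enrichment of 5.65 and lay 756 bp from the locus. ADAM19, a membrane-bound metalloprotease, had 1.38, 6.99, 0.702 and 1.15 FPKM, with its member in an intron. CCBE1, a secreted protein of the matrix needed for lymphatic vessels, had 4.99, 15.3, 3.26 and 2.61 FPKM, also highest in RWPE1-ERG cells.

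Genes that were lower with ERG were few. PTGES, which makes prostaglandin E, had 19.4 FPKM in RWPE1-vector, 4.51 in RWPE1-ERG, 28.9 in RWPE1-mAKT and 18.1 in RWPE1-ERG/mAKT cells. It was 4.30-fold lower with ERG, and its level with both ERG and mAKT was close to that of vector cells. FLRT3, an adhesion protein, had 5.83, 2.61, 4.02 and 2.15 FPKM, and its locus is shared by 5 genes. MIR3934, a small RNA gene whose FPKM is uncertain, had 30.6, 11.9, 2.54 and 0 FPKM.

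KRT13, KRT6B and S100A9, named among the largest differences, were highest in RWPE1-ERG/mAKT cells. KRT13, a keratin of upper layers of stratified epithelium, had 4.10 FPKM in RWPE1-vector, 9.76 in RWPE1-ERG, 111 in RWPE1-mAKT and 148 in RWPE1-ERG/mAKT cells, a 27-fold difference of mAKT over vector. Its member at chr17:39656525-39656667 lay 665 bp from the locus and held the AP-1 sequence printed above. KRT6B, a keratin of activated epithelium, had 5.26, 6.15, 14.2 and 22.6 FPKM. S100A9, a calcium-binding protein of inflamed epithelium and myeloid cells, had 33.0, 38.4, 51.6 and 691 FPKM, so it was 18.0-fold higher in RWPE1-ERG/mAKT than in RWPE1-ERG and 13.4-fold higher than in RWPE1-mAKT cells. Its member at chr1:153330160-153330380 had a fold enrichment of 4.94 and lay 89 bp from the S100A9 start. ALDH3A1, an aldehyde dehydrogenase, had 3.36, 0.864, 4.48 and 15.3 FPKM, highest in RWPE1-ERG/mAKT cells. CXXC5, a zinc finger protein, had 2.35, 2.46, 6.27 and 7.09 FPKM, with both lines that carried mAKT above both that did not.

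XDH and ABCC3 were lower in RWPE1-ERG/mAKT than in RWPE1-mAKT cells. XDH, the xanthine dehydrogenase of purine breakdown, had 6.44 FPKM in RWPE1-vector, 3.33 in RWPE1-ERG, 8.91 in RWPE1-mAKT and 2.91 in RWPE1-ERG/mAKT cells, and 3 members had it as their nearest gene. ABCC3, a transporter of organic anions, had 6.67, 4.05, 7.14 and 2.82 FPKM and 2 members. For both genes the 2 lines with ERG were below the 2 lines without it. NRG1, a ligand of ERBB receptors, had 8.87, 5.47, 8.73 and 3.25 FPKM with the same order, and its locus was shared by 3 genes. The remaining genes of the largest changes were MIR7844 and SNORD119, genes of small RNAs.

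**Figure D5:**
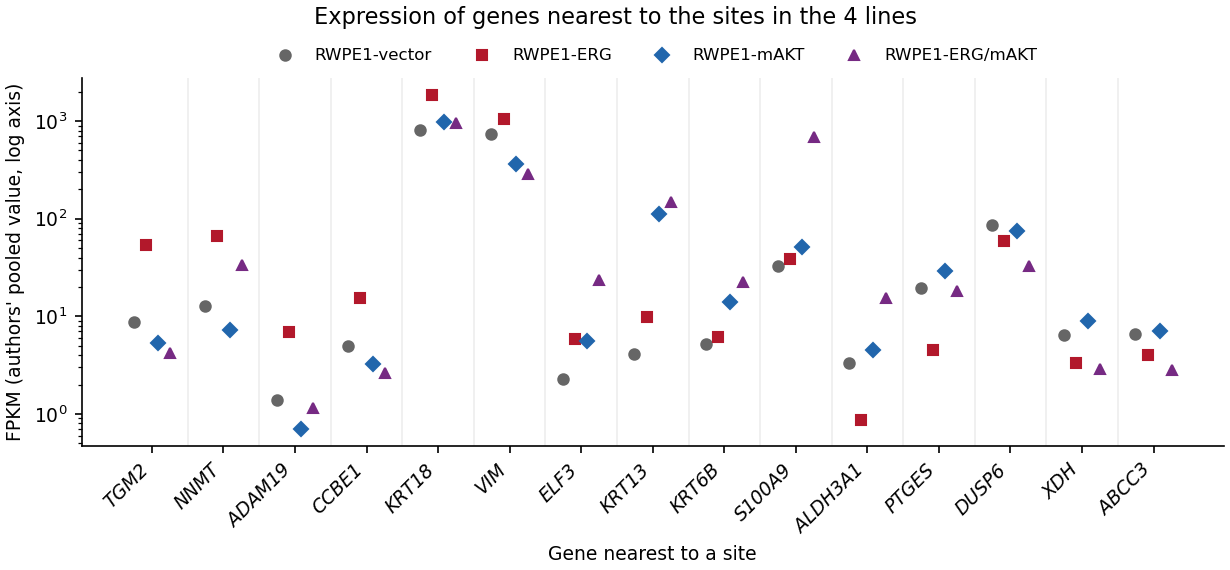
FPKM on a log axis (authors' value pooled over 3 libraries, so no error bar) of 15 genes nearest to members in RWPE1-vector (grey circles), RWPE1-ERG (red squares), RWPE1-mAKT (blue diamonds) and RWPE1-ERG/mAKT cells (purple triangles). TGM2 and ADAM19 are highest in RWPE1-ERG cells, and S100A9, at 691 FPKM, is highest in RWPE1-ERG/mAKT cells.

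For the lists below, the share of genes that were nearest to a member can be read beside all genes, though the nearest locus can be far away. Members of any q-value were counted. A share of 4.49% of all genes listed, and 5.70% of the genes with at least 1 FPKM, were nearest to a member. Of 16 feedback genes in the table, 5, or 31.2%, were nearest to a member, and 1 of these 5 was past 2-fold, lower in RWPE1-ERG/mAKT than in RWPE1-mAKT cells. This was DUSP6, the phosphatase that inactivates ERK, with 86.2 FPKM in RWPE1-vector, 59.6 in RWPE1-ERG, 74.8 in RWPE1-mAKT and 32.5 in RWPE1-ERG/mAKT cells. Its member at chr12:89764586-89765007 had a fold enrichment of 5.87 and lay 18332 bp from the locus. SPRED2, which blocks RAF activation, had 15.1, 10.7, 15.3 and 8.75 FPKM, the phosphatase gene DUSP5, 50485 bp from its member, had 39.1, 33.0, 39.98 and 23.7, and PHLDA1, 47518 bp from its member, had 31.7, 23.9, 26.6 and 21.2. All 4 of these genes were lowest in RWPE1-ERG/mAKT cells. SPRY1 was the fifth, with 2.36, 2.94, 2.76 and 3.76 FPKM. Over the 15 feedback genes with at least 1 FPKM, near a member or not, the median log2 ratio was also low. It was -0.30 in RWPE1-ERG/mAKT over RWPE1-ERG and -0.43 over RWPE1-mAKT cells, beside -0.04 and -0.07 for all genes. The lower level was thus not particular to the feedback genes nearest to a member.

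Of 11 AP-1 subunit genes, JUN, JUNB and FOS, or 27.3%, were nearest to a member. None of the 3 was past 2-fold in any comparison. JUN had 2 members, 17560 and 25110 bp away, and 44.8 FPKM in RWPE1-vector, 39.2 in RWPE1-ERG, 44 in RWPE1-mAKT and 36.3 in RWPE1-ERG/mAKT cells. JUNB, 7647 bp from its member, had 111, 97.3, 118 and 112 FPKM and FOS, 23921 bp from its member, had 8.86, 9.04, 8.23 and 12 FPKM.

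Of 16 ETS factor genes, ERG, ELF3, ETS1 and ETV1, or 25%, were nearest to a member, and of these only ERG, which the introduced cDNA also holds, had one within 20 kb. ELF3, an ETS factor of differentiated epithelium, had 2.26 FPKM in RWPE1-vector, 5.81 in RWPE1-ERG, 5.57 in RWPE1-mAKT and 23.4 in RWPE1-ERG/mAKT cells. Its member at chr1:202025850-202025999 had a fold enrichment of 6.38, held GGAAGT and lay 39623 bp from the locus. ETS1, whose locus is shared by 3 genes, had 21.0, 25.0, 20.7 and 13.5 FPKM, with the member 278192 bp away. ETV1, 41107 bp from its member, had under 2 FPKM in every line.

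Of 16 adhesion genes 3, or 18.8%, were nearest to a member, and none was past 2-fold. CLDN4, a claudin of tight junctions, had 8.23, 14.9, 14.0 and 17.6 FPKM in the order vector, ERG, mAKT and ERG/mAKT. PKP1, a desmosome protein, had 97.5, 72.8, 114 and 100.5 FPKM, and TJP1, a tight junction scaffold, had 20.6, 24.6, 20.8 and 21.8 FPKM. Of 12 YAP and TEAD genes 3, or 25%, were nearest to a member. YAP1 had 39.4, 33.3, 40.1 and 36.5 FPKM, with a member of fold enrichment 3.53. AMOTL2, which binds YAP and whose locus is shared by 2 genes, had 22.8, 29.9, 21.2 and 16.7. ANKRD1, a YAP target, had 0.0146, 3.10, 0.0615 and 0.320. ANKRD1 was thus the YAP gene past 2-fold, with a member 81 bp from its locus that was open in RWPE1-mAKT but not in the list of RWPE1-ERG cells, where its FPKM was highest.

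Of 17 PI3K, AKT and FOXO genes, PIK3R1 and SGK1, or 11.8%, were nearest to a member, at 18038 and 40500 bp. PIK3R1, the regulatory subunit of PI3K, had 10.0 FPKM in RWPE1-vector, 4.67 in RWPE1-ERG, 9.31 in RWPE1-mAKT and 11.4 in RWPE1-ERG/mAKT cells. SGK1, a kinase related to AKT, had 15.7, 32.7, 14.7 and 25.3 FPKM, and both lines with ERG were above both without.

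None of the 12 basal genes and none of the 16 genes of migration and proteolysis was nearest to a member. Of 12 luminal genes KRT18 and DPP4, or 16.7%, were, and KRT18, a simple keratin, had 817, 1843, 987 and 958 FPKM, in a locus shared by 2 genes. The KRT18 member had a fold enrichment of 3.53. Of 13 mesenchymal genes VIM, or 7.69%, was, with 737, 1056, 366 and 288 FPKM. The locus of VIM is also shared by 2 genes, so its member can lie in the other one. This member, at chr10:17258345-17258453, had a fold enrichment of 4.70 and held AP-1 and GGAAGT. TEK of the 15 endothelial genes, or 6.67%, and CSF1R of the 10 immune genes, or 10%, held a member each. Both were below 1 FPKM in every line. Of 9 PRC2 genes JARID2, whose locus is shared by 2 genes, was nearest to a member 368709 bp away.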

How the data were processed

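ERG, ERK2 and H3K27me3 ChIP-seq, ATAC-seq and RNA-seq files of the authors were read as deposited, with no reads. Each ChIP-seq library pooled DNA from 3 experiments. For the peak lists the authors aligned reads to hg19 and called peaks with MACS2, per the file headers version 2.1.2 for ERG and ERK2 and 2.2.7.1 for H3K27me3, with a p-value limit of 0.001 for ERG and 0.01 for ERK2. The deposited lists give a pileup signal, a fold enrichment ratio over input or background, and, on a −log10 scale, the p-value and the q-value. The deposited Cuffdiff table gives an FPKM pooled over 3 libraries per line, and its fold changes, test statistics and p-values were not used. It has 0 columns of single samples. The headers record 10306483 ERG ChIP and 14670664 input reads, 35688481 fragments for RWPE1-mAKT ATAC-seq, and the depth of the other ATAC-seq libraries is unknown.

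The members and gene lists were chosen with earlier results of these data known. Overlap means 1 bp, and distances count the bases between peaks. Shares have 95% Wilson intervals and differences of shares 95% Newcombe intervals, which cover counting error only. No test was run, since each list has 1 library and FPKM is pooled. Members on chromosome 8 have no printed sequence. 1 of the members chosen for printing is not reported here. Sequences were searched on both strands of GRCh37 within 100 bp of the summit. The nearest gene has the nearest locus, with ties to the shorter and then by name, and log2 ratios used a pseudocount of 1 among genes of at least 1 FPKM. Tandem repeats were peaks whose central 61 bp had at least 80% of bases equal to the base at a fixed step of up to 6 bp. Named genes are those nearest to the 10 members of highest fold enrichment at a q-value of 0.01 or less, the 3 largest differences each way per comparison within 20 kb with at least 5 FPKM in the higher and above 0.5 in the lower line, genes nearest to 4 or more members, and genes of 13 lists. The chart of FPKM by gene shows 15 of these, chosen after their values were seen. 0 peaks of the lists lay beyond a chromosome end. Lists whose content did not match their label were not used. Interval and sequence searches were tested on simulated data. Scripts used pysam 0.24.0, matplotlib 3.10.9, scipy 1.17.1 and pandas 2.3.3, with numpy 2.4.6 under Python 3.11.15. Gene starts are from GENCODE release 44 mapped to GRCh37.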

Additional observations from a re-analysis of the deposited data

How the results depend on the processing

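Of 127 alternatives, 88 kept the value within its interval, within 1.5 times for a count or within 0.1 on the log2 scale for a median, among them every alternative of the medians. The medians ran from -0.10 to 0.02, so that limit was about as wide as the values, and passing it says little about them. A q-value limit of 0.01 left 184 members, with the ETS sequence in 18.5%, AP-1 in 27.7% and a VCaP peak in 8.15%. A window of 50 bp gave 6.40% for ETS and 15.4% for AP-1. The top 33000 ATAC-seq peaks gave 67.8% open in all 3 lines and 12.2% open in RWPE1-ERG but not RWPE1-mAKT cells. The share near a gene start was 9.86% at 500 bp, 29.5% at 5 kb and 7.37% for protein-coding genes. VCaP peaks with a q-value of 0.01 or less overlapped 2.48%, and 5.87% had one within 1 kb. H3K27me3 in vector cells was at 1.35% with equal numbers of regions and 0.978% with 2-fold regions. Vector ERK2 was near 16.9% with a p-value limit of 0.001 and 5.72% with equal lists.

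Counts of nearest genes moved most. At a q-value of 0.01, ERG over vector had 10 higher (9.35%, beside 3.54% of all genes), ERG itself among them, and 0 lower (beside 0.966%). For mAKT over vector 2 were higher (1.87%, beside 1.13%) and 0 lower (beside 0.814%). For ERG/mAKT over ERG 3 were higher (2.80%, beside 2.02%) and 3 lower (2.80%, beside 2.47%). For ERG/mAKT over mAKT 4 were higher (3.74%, beside 2.03%), ERG itself among them, and 5 lower (4.67%, beside 0.854%). With a pseudocount of 0.1, 15 were lower with ERG over vector, or 2.101%, beside 1.87% of all genes. With a pseudocount of 1 the values were 0.560% beside 0.966%, so the order turned. At a pseudocount of 0.1, 37 were lower with ERG/mAKT over ERG (5.18%, beside 3.65%). At the same setting 29 were higher with ERG/mAKT over mAKT (4.06%, beside 2.99%). The nearest gene start gave 7 lower with ERG over vector (0.960%, beside 0.966% of all genes) and 9 lower with ERG/mAKT over mAKT (1.23%, beside 0.854%). Of the alternatives added after seeing the data, the nearest GENCODE span gave 2 lower with ERG over vector (0.249%, beside 0.966%). It gave 5 higher (0.623%, beside 1.13%) and 2 lower (0.249%, beside 0.814%) with mAKT over vector. With ERG/mAKT over ERG it gave 17 higher, or 2.12% beside 2.02%. With ERG/mAKT over mAKT it gave 9 higher and 9 lower, each 1.12%. The 9 higher are below the 2.03% of all genes, where the nearest locus gave 2.38%. The 9 lower stand beside 0.854%, where the nearest locus gave 1.96%. Leaving out small RNA genes gave 2 lower with ERG over vector (0.287%, beside 0.530%). With mAKT over vector it gave 5 higher (0.717%, beside 0.364%) and 1 lower (0.143%, beside 0.290%). With ERG/mAKT over mAKT it gave 10 higher (1.43%, beside 0.903%). Where fewer members or genes enter, the counts fall by construction, and for the other moves the cause was not tested. No paired analysis was possible because each line's FPKM is pooled over its libraries and each peak list is a single library, and for the same reason no replicate could be left out. The shallow pileups limit every count of members.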
